A study of Mus musculus with 2 samples.

Results

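The 34 genes described here encode postsynaptic scaffold and signalling proteins. They were taken by name for these roles, and all 34 were found among the 55450 genes with a symbol in the deposited tables. They comprise 4 membrane-associated guanylate kinases (MAGUKs: Dlg1 to Dlg4), 4 proteins that bind the guanylate kinase (GK) domain of MAGUKs (Dlgap1 to Dlgap4), 3 Shanks, 3 Homers, 6 other scaffolds or adaptors, 5 regulators of small GTPases, 8 actin and spine proteins and 1 scaffold of inhibitory synapses, gephyrin. Their messages were measured by poly(A)+ RNA-seq of the left cerebral cortex of adult mice of the B6NCrl strain, a C57BL/6 substrain, aged 6 months. There was 1 group, cortex, with 2 libraries made from 20 ng of RNA by tagmentation, the cutting and tagging of cDNA by a transposase. The mice carried no allele or treatment that the labels name. Both libraries carried the same donor entry and separate biosample records, so only the replicate numbers speak for separate animals, and the spread between the libraries may be technical. The labels described the tissue as male in one field and gave the sex as not collected in another.

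An excitatory synapse is held together on its receiving side by the postsynaptic density, a layered protein mesh. MAGUKs such as PSD-95 lie next to the membrane and hold glutamate receptors, GK-binding proteins link them to Shanks, and Shanks and Homers form a deeper lattice that reaches metabotropic receptors and the actin of the spine. Regulators of Arf, Rac and Rap GTPases sit on this lattice and set receptor traffic and spine shape. Cortical excitatory neurons are rich in these proteins, whereas gephyrin builds the matching lattice under GABA and glycine receptors.

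Replicate 1 was the deeper library, with 51888568 fragments on genes, against 26776336 for replicate 2. Long transcripts' deposited effective lengths correspond to fragments of 164 bases in replicate 1 and 124 bases in replicate 2. Neuronal markers had a median of 388.6 TPM in replicate 1 and 372 TPM in replicate 2, where TPM is the deposited level per transcript length, scaled to the same sum in each library. Markers of astrocytes, oligodendrocytes and microglia were detected as well, so the tissue is a mixture. In such bulk RNA, fewer cells of a type and less RNA per cell cannot be told apart. Across all 14640 genes with a mean of at least 1 CPM (counts scaled by library size), 16.1% were at least 1.5-fold higher in replicate 1 and 3.98% at least 1.5-fold lower, 20.1% in all. The libraries thus differed unevenly, and each ratio below, always replicate 1 over replicate 2, compares 2 libraries with no replicate check and no p-value. The 95% Clopper-Pearson intervals given with the ratios hold counting error alone, as no molecular identifiers were used.

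All 34 genes were detected at 1 TPM or more in both libraries, and 32 of them at 5 TPM or more. Their median level was 38.8 TPM in replicate 1 and 28.6 TPM in replicate 2, a mean of 33.7 ± 7.25 (SD, n = 2). Detected protein coding genes had medians of 14.3 and 13.3 TPM, and 24 of the 34 lay above those medians in both libraries. Levels spanned from 164 ± 2.09 TPM for Cyfip2 to 3.47 ± 2.59 TPM for Homer3 (SD, n = 2). The order of the 34 genes was similar but not identical in the libraries (Spearman rho 0.767 across genes, which share the libraries and are not replicates). Cyfip2 was the highest and Homer3 the lowest of the 34 in both. Begain stood 8th of the 34 in replicate 1 and 32nd in replicate 2, the largest change of place.

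**Figure D1:**
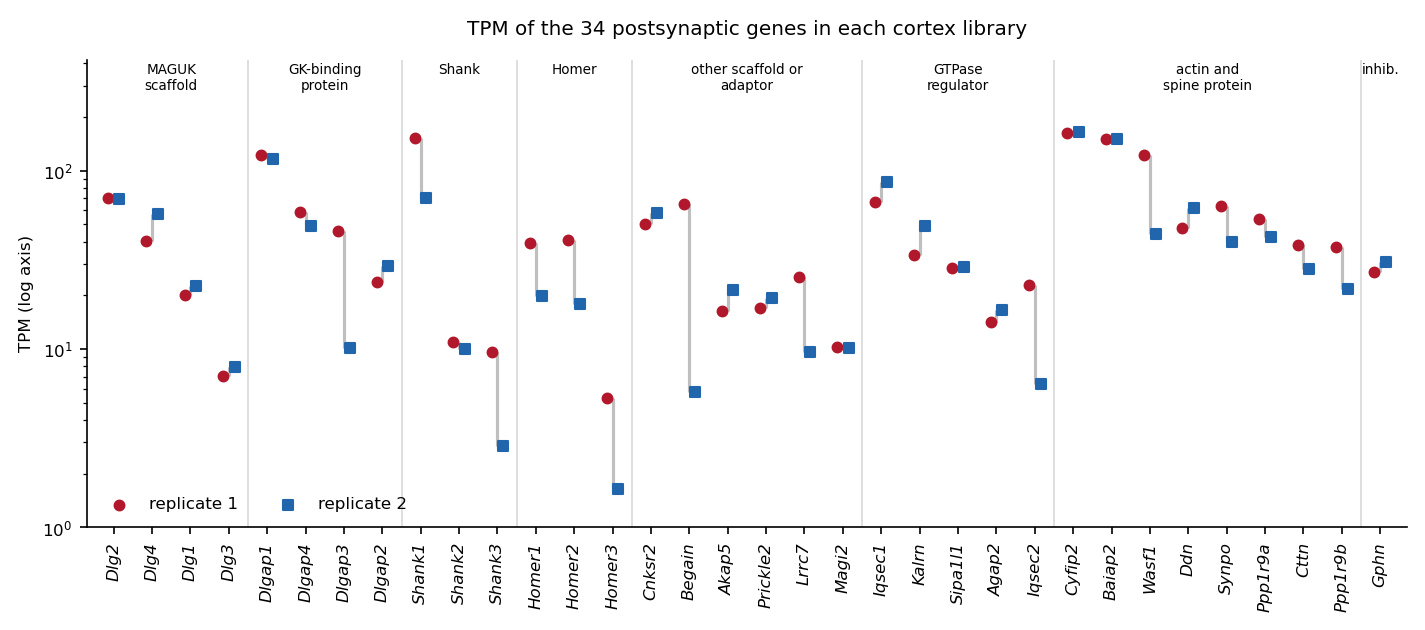
TPM on a log axis for each of the 34 genes, grouped by role and ordered by mean level within a role, with replicate 1 as circles and replicate 2 as squares joined by a grey line. Most pairs lie close together, while Begain, Dlgap3, Iqsec2, Shank3, Homer3 and Wasf1 stand far lower in replicate 2.

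In total 11 of the 34 genes (32.4%) were at least 1.5-fold higher in replicate 1, against 16.1% of all genes tested, and 0 were at least 1.5-fold lower, against 3.98%. The 11 were Begain, Dlgap3, Iqsec2, Shank3, Homer3, Wasf1, Shank1, Lrrc7, Ppp1r9b, Homer1 and Homer2. The median log2 ratio of the 34 was 0.18, beside -0.0044 for all genes tested. The 11 included all 3 Homers, 2 of 3 Shanks and 1 of 4 GK-binding proteins, and none of the 4 MAGUKs. The counting interval of the ratio was narrow, with a median half-width of 0.08 on the log2 scale, and it held 0 for 4 genes, Dlg4, Gphn, Iqsec1 and Magi2.

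**Figure D2:**
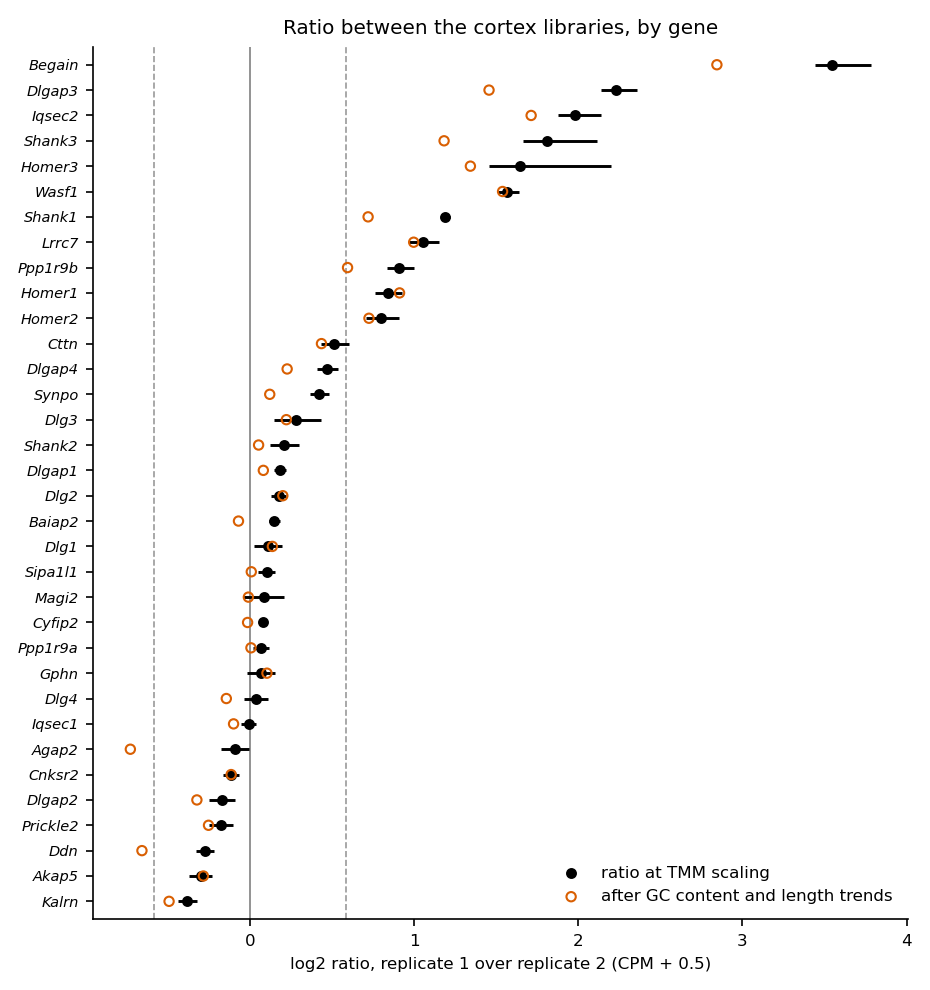
Log2 ratio of replicate 1 over replicate 2 for each gene (filled points, with 95% counting intervals) and the same ratio after trends on GC content and transcript length over all genes were removed (open points), with dashed lines at 1.5-fold either way. The 11 genes right of the upper dashed line stay right of it after the trends are removed, and Agap2 and Ddn then lie left of the lower one.

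The MAGUKs hold receptors and adhesion proteins at the membrane through their PDZ domains. Dlg2, which encodes PSD-93, was the highest at 70.6 TPM in replicate 1 and 69.4 TPM in replicate 2. Dlg4, which encodes PSD-95 (ENSMUSG00000020886.17, chromosome 11, 70016942 to 70047522, plus strand, mm10), followed at 40.5 and 57.0 TPM. Dlg1 (SAP97) had 20.1 TPM in replicate 1 and 22.5 TPM in replicate 2, and Dlg3 (SAP102) was the lowest at 7.03 and 7.97 TPM. The order Dlg2, Dlg4, Dlg1, Dlg3 held in both libraries. All log2 ratios lay between 0.04 for Dlg4 and 0.28 for Dlg3, within 1.5-fold.

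The TPM of Dlg4 was lower in replicate 1 although its ratio of scaled fragments was close to 1. It had 4434 fragments in replicate 1 and 2370 in replicate 2, which gave a log2 ratio of 0.04 (interval -0.04 to 0.11). TPM divides fragments by the length of the transcripts they are assigned to, and those assignments differed between the libraries for Dlg4, as described below.

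The GK-binding proteins, also called SAPAPs, join MAGUKs to Shanks. Dlgap1 was the highest at 122 TPM in replicate 1 and 115.9 TPM in replicate 2 (log2 ratio 0.18). Dlgap4 had 58.6 and 48.9 TPM (0.47), and Dlgap2 had 23.8 and 29.3 TPM (-0.17). Dlgap3 (ENSMUSG00000042388.14, chromosome 4, 127169204 to 127237022, plus strand) differed from the other three. It had 45.7 TPM and 6483 fragments in replicate 1, against 10.1 TPM and 748 fragments in replicate 2, a log2 ratio of 2.23 (interval 2.14 to 2.36). In replicate 1 Dlgap3 therefore lay above Dlgap2, and in replicate 2 below it.

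Shanks form the deeper lattice, binding GK-binding proteins through a PDZ domain and Homers through a proline-rich stretch. Shank1 (ENSMUSG00000038738.15, chromosome 7, 44310253 to 44360572, plus strand) was by far the highest of the 3 in both libraries. It had 152 TPM and 54993 fragments in replicate 1, against 70.2 TPM and 13208 fragments in replicate 2, a log2 ratio of 1.19 (interval 1.16 to 1.22). Shank2 was nearly level at 11.0 and 9.96 TPM (0.21). Shank3 (ENSMUSG00000022623.16, chromosome 15, 89499623 to 89560261, plus strand) had 9.58 TPM in replicate 1 and 2.88 TPM in replicate 2. Its 1279 and 190 fragments gave a log2 ratio of 1.81 (interval 1.66 to 2.11). The fragments of Shank3 were few beside those of Shank1, and its interval was correspondingly wider.

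Homers bind Shanks and the metabotropic glutamate receptor mGluR5 through an EVH1 domain, and the long forms pair up through a coiled coil. All 3 were at least 1.5-fold higher in replicate 1. Homer1 (ENSMUSG00000007617.18, chromosome 13, 93299635 to 93405129, plus strand) had 39.4 TPM in replicate 1 and 19.8 TPM in replicate 2, a log2 ratio of 0.84 (interval 0.76 to 0.93). Homer2 had 40.9 and 17.8 TPM, a log2 ratio of 0.80 (interval 0.71 to 0.91). Homer1 and Homer2 did not differ beyond their spread, at 29.6 ± 13.9 and 29.4 ± 16.4 TPM (SD, n = 2 each).

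Homer3, which is strong in the cerebellum, was the lowest of the 34 at 5.30 TPM in replicate 1 and 1.64 TPM in replicate 2 (463 and 72 fragments, log2 ratio 1.64, interval 1.46 to 2.20). A gene on the opposite strand, Ddx49, overlaps 25.4% of the exon bases of Homer3 and had 1299 fragments in replicate 1 and 787 in replicate 2. Whether the counting used strand was not given in the sources used here, so reads from the overlap cannot be told apart and the level of Homer3 is uncertain.

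The other scaffolds and adaptors ranged from Cnksr2 to Magi2. Cnksr2, which links Ras signalling to PSD-95, had 50.4 TPM in replicate 1 and 58.2 TPM in replicate 2 (log2 ratio -0.11). Akap5, which anchors protein kinase A, had 16.4 and 21.5 TPM (-0.30), and Prickle2, a planar cell polarity protein, had 17.0 and 19.3 TPM (-0.17). Magi2, a MAGUK with inverted domain order, was level at 10.2 TPM in each library (0.08). Lrrc7, or densin, which binds CaMKII and Shanks, had 25.3 TPM and 4928 fragments in replicate 1, against 9.64 TPM and 1297 fragments in replicate 2 (1.05, interval 0.97 to 1.15).

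Begain showed the largest ratio of the 34. It encodes a protein found through its binding to the guanylate kinase domain of PSD-95 (ENSMUSG00000040867.12, chromosome 12, 109032187 to 109068217, minus strand). It had 64.8 TPM and 6538 fragments in replicate 1, against 5.77 TPM and 294 fragments in replicate 2. The difference was 11.7-fold, a log2 ratio of 3.55 (interval 3.44 to 3.78). A single transcript, Begain-203, took 97.9% of the gene's TPM in replicate 1 and 94.4% in replicate 2, so nearly the whole level in each library came from 1 form.

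Among the regulators of small GTPases, Iqsec1 was the highest. Iqsec1 and Iqsec2 encode exchange factors for Arf6, which governs the uptake of receptors. Iqsec1 had 67.1 TPM in replicate 1 and 86.3 TPM in replicate 2, with a log2 ratio of scaled fragments of -0.01. Iqsec2 (ENSMUSG00000041115.16, chromosome X, 152144268 to 152225236, plus strand) had 22.9 TPM and 3808 fragments in replicate 1, against 6.36 TPM and 520 fragments in replicate 2. Its log2 ratio was 1.98 (interval 1.87 to 2.14). The paralogs thus stood 2.93-fold apart in replicate 1 and 13.6-fold apart in replicate 2.

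The other GTPase regulators stayed within 1.5-fold. Kalrn, a Rac exchange factor of spines, had 33.6 TPM in replicate 1 and 49.1 TPM in replicate 2, with the lowest ratio of all 34 genes (log2 -0.38, interval -0.44 to -0.32). Agap2, an Arf GTPase-activating protein that also enhances PI3-kinase, had 14.2 and 16.5 TPM (-0.09). Sipa1l1, a Rap GTPase-activating protein, was level at 28.5 and 29.0 TPM (0.10).

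The actin and spine proteins had the highest summed level of the roles, 674 TPM in replicate 1 and 554.5 TPM in replicate 2. Cyfip2 and Wasf1 belong to the WAVE complex, which turns Rac signals into branched actin. Cyfip2 (ENSMUSG00000020340.16, chromosome 11, 46193850 to 46312859, minus strand) had 162.7 TPM in replicate 1 and 165.6 TPM in replicate 2 (log2 ratio 0.08). Wasf1 (ENSMUSG00000019831.14, chromosome 10, 40883475 to 40938570, plus strand), which encodes WAVE1, had 121.7 TPM and 12426 fragments in replicate 1, against 44.1 TPM and 2290 fragments in replicate 2. Its log2 ratio was 1.57 (interval 1.51 to 1.64), so these partners in 1 complex did not move together between the libraries. Baiap2, or IRSp53, which bends membranes and binds WAVE, was level at 149.99 and 150.8 TPM (0.15).

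None of the other spine proteins differed as much as Wasf1. The neurabins target protein phosphatase 1 to actin. Ppp1r9b, or spinophilin, had 37.3 TPM in replicate 1 and 21.7 TPM in replicate 2 (log2 ratio 0.91, interval 0.83 to 1.00), while Ppp1r9a, or neurabin, had 53.7 and 42.5 TPM (0.07). Cttn, or cortactin, which binds the Arp2/3 complex, had 38.3 and 28.2 TPM (0.51). Synpo, or synaptopodin, a component of the spine apparatus, had 63.1 and 39.99 TPM (0.42). Ddn, or dendrin, whose message is known to travel into dendrites, had 47.7 TPM in replicate 1 and 61.6 TPM in replicate 2 (-0.27).

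Gphn, the inhibitory scaffold, was among the steadiest. It had 27.1 TPM in replicate 1 and 30.6 TPM in replicate 2, with a log2 ratio of 0.07 (interval -0.02 to 0.15). Its level, 28.8 ± 2.50 TPM, lay close to that of Sipa1l1 at 28.7 ± 0.354 TPM (SD, n = 2 each), a difference within the spread.

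The ratio between the libraries was larger, on the whole, in GC-rich genes. GC content here is that of a gene's annotated transcripts, weighted by TPM. Of the 15 genes above 55% GC, 7 were at least 1.5-fold higher in replicate 1, and of the 19 at or below 55%, 4 were. Over all genes tested the shares were 30.1% above 55% GC and 10.9% at or below it. Above 60% GC, 4 of 5 were called and their median log2 ratio was 1.81. All tested genes above 60% GC had a median of 0.57, and 49.2% of them were at least 1.5-fold higher in replicate 1. Across the 34 genes GC content and the ratio had a Spearman rho of 0.387, beside 0.307 over all genes tested, as a description over genes that share the same libraries.

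**Figure D3:**
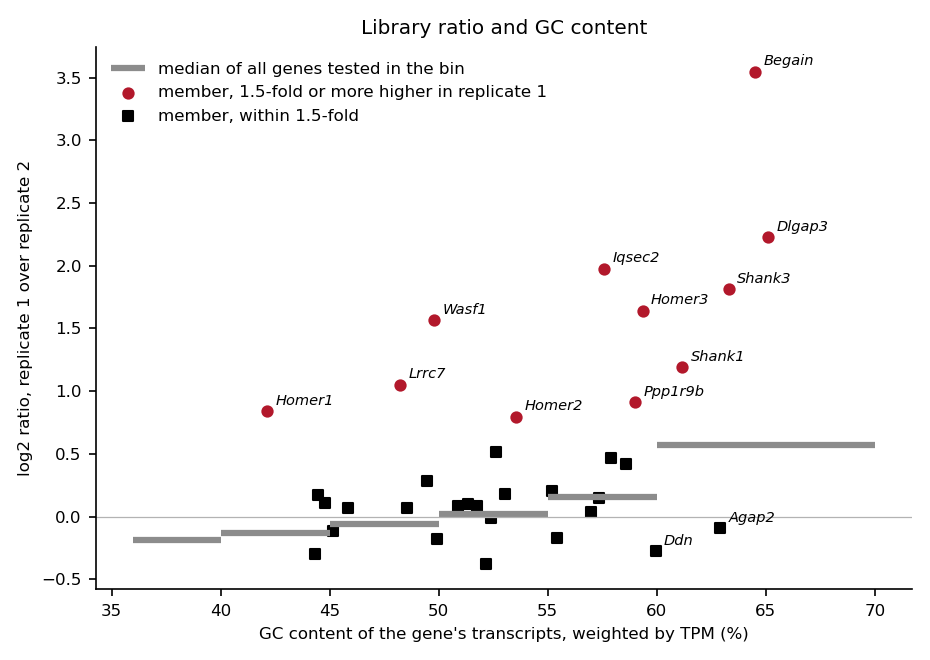
Log2 ratio of replicate 1 over replicate 2 against GC content for the 34 genes (red circles at 1.5-fold or more, black squares within 1.5-fold), with grey bars at the median of all genes tested in each range of GC content. The GC-rich genes Begain, Dlgap3, Shank3 and Shank1 lie far above the grey bar, Agap2 and Ddn lie below it, and Homer1, Lrrc7 and Wasf1 are high at moderate GC content.

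The 4 called genes above 60% GC were Dlgap3 (65.1%), Begain (64.5%), Shank3 (63.3%) and Shank1 (61.2%). Agap2, at 62.9% GC, was the exception, with a log2 ratio of -0.09. The called genes at moderate GC content were Homer1 (42.1%), Lrrc7 (48.2%), Wasf1 (49.8%) and Homer2 (53.5%). When trends on GC content and length over all genes were removed, 11 of 34 genes were higher in replicate 1, against 13.9% of all genes, and they were the same 11. The log2 ratio of Begain was then 2.84, that of Dlgap3 1.46, that of Shank3 1.18 and that of Shank1 0.72. Those of Homer1 (0.91), Lrrc7 (1.00) and Wasf1 (1.54) changed little. Agap2 (-0.73) and Ddn (-0.66) became at least 1.5-fold lower in replicate 1, against 4.39% of all genes. Either way 13 of 34 genes were then called, against 18.3%. The part of GC content and fragment length in these ratios was not tested further.

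To show what the composition looks like, the first 90 coding bases of a transcript of 2 GC-rich genes with large ratios, Begain and Shank3, stand beside those of 2 steady genes, Cnksr2 and Dlgap1. They are read 5′ to 3′ from the GENCODE M21 transcripts on mm10, with CG dinucleotides in capitals.
Begain-203: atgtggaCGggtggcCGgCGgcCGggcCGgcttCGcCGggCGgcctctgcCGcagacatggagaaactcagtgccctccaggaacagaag
Shank3-201: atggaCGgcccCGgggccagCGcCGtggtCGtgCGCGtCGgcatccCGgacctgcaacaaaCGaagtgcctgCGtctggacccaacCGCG
Cnksr2-202: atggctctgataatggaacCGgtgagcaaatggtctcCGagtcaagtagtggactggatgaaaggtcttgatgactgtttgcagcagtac
Dlgap1-211: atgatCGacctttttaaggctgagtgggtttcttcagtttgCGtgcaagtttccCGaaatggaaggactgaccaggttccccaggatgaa
The stretch of Begain held 9 CG dinucleotides at 70% GC and that of Shank3 13 at 71.1% GC. Cnksr2 held 2 and Dlgap1 3, each at 47.8% GC. The contrast depends on the stretch and form shown. The first 200 bases of the transcript were 76.0% GC for Cnksr2-202, 73.0% for Begain-203, 68.0% for Shank3-201 and 53.0% for Dlgap1-211. Over its whole length Dlgap1-211 had 46.8% GC, below the 53.0% of its gene.

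The tables of single transcripts show which forms made up each gene's level. A transcript's share is the isoform percent, the part of its gene's TPM assigned to it, and the numbers after the hyphen are the annotation's names. The 34 genes had 301 annotated transcripts. The transcript with the largest share was the same in both libraries for 24 of 34 genes in the first transcript tables and for 23 in the second transcript tables, which the authors made with another method. It differed between the libraries in both kinds of table for 7 genes, Dlg3, Dlgap1, Dlgap4, Shank2, Homer1, Iqsec2 and Agap2. In 7 genes a single transcript held at least 80% in both libraries: Begain, Cttn, Cyfip2, Ddn, Dlgap3, Homer3 and Shank1.

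Homer1 is known for short forms, such as Homer1a, that are made after synaptic activity and lack the coiled coil, so that they loosen the lattice. The annotation holds 3 long transcripts, with 1065 to 1113 coding bases, and 8 short ones, with 543 to 702. The short class is set by coding length alone: 3 of the 8, Homer1-209 to Homer1-211, end at the stop of Homer1-203 and lack inner coding bases. Short transcripts made up 38.8% of the gene's TPM in replicate 1 and 12.3% in replicate 2 in the first tables, and 42.0% and 25.8% in the second tables. In TPM this was 15.3 in replicate 1 and 2.43 in replicate 2. The 5 forms whose coding sequence stops before the last coding exon of Homer1-203, a class chosen after the values were seen, had the same 38.8% and 12.3% in the first tables, and 37.6% and 12.2% in the second.

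Most of that difference lay in 1 transcript. Homer1-207, with 582 coding bases, had 26.6% and 971 fragments in replicate 1, against 0.18% and 2 fragments in replicate 2. It has 1541 bases before its coding sequence, beside 499 in Homer1-203, and starts upstream of all other coding forms of Homer1. Fragments from its first bases could be assigned to it whatever the end of the message, so its share, and with it the short share, is uncertain. Without Homer1-207 the short share was 12.2% in replicate 1 and 12.1% in replicate 2 in the first tables, and 15.2% and 25.2% in the second. The early-ending class without it had 12.2% and 12.1% in the first tables, and 10.8% and 11.6% in the second. Homer1-204, the short form with 561 coding bases, was steady at 8.38% in replicate 1 and 9.61% in replicate 2. In TPM Homer1-204 stood at 3.30 in replicate 1, with deposited bounds of 2.94 and 3.47, and at 1.90 in replicate 2, with bounds of 1.56 and 2.07. In the second tables Homer1-211, with 579 coding bases, took 3.60% and 13.1%, while it had 0% in both libraries in the first, so this form rests on the method.

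The coding sequences show where the short forms part from the long form Homer1-203. Each line below gives coding bases 5′ to 3′, with the bases shared with Homer1-203 in lower case and the following bases of the form itself in capitals. In the line of Homer1-203 the capitals begin where Homer1-204 parts.
Homer1-204: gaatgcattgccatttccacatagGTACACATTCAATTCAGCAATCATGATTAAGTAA
Homer1-205: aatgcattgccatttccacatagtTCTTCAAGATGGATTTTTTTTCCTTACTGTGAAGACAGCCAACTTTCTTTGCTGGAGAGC
Homer1-206: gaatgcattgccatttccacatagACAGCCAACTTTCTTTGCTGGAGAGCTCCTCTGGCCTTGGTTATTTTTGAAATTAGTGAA
Homer1-207: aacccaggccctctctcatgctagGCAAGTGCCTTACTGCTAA
Homer1-203: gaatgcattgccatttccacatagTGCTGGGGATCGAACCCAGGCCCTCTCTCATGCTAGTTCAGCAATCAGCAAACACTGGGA
Homer1-204 shares the first 527 coding bases with Homer1-203 and ends at base 561. Homer1-207 shares 563 bases and ends at base 582, so it also holds the stretch that Homer1-203 has between those points. Both short forms keep the shared start, which encodes the EVH1 domain.

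The long forms traded places as well. Homer1-202 had 26.2% in replicate 1 and 61.8% in replicate 2, and Homer1-203 had 34.9% and 25.9%. Homer1-202 starts at base 93308034, downstream of Homer1-207, which starts at 93303757. The first 200 bases of Homer1-207 were 72.0% GC and those of Homer1-202 33.5% GC. In TPM Homer1-202 was close in the libraries, 10.3 in replicate 1 and 12.2 in replicate 2, whereas Homer1-203 had 13.8 and 5.12.

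The windows around these start sites differ in composition too. RefSeq's table of promoters (GRCm38.p6, the assembly of mm10) gives 250 bases before to 50 after a start, and its 2 windows for Homer1 place those starts at the first bases of Homer1-207 and Homer1-202. Both are shown on the plus strand of chromosome 13 with CG dinucleotides in capitals, at chr13:93303507-93303806 and at chr13:93307784-93308083.
upstream window: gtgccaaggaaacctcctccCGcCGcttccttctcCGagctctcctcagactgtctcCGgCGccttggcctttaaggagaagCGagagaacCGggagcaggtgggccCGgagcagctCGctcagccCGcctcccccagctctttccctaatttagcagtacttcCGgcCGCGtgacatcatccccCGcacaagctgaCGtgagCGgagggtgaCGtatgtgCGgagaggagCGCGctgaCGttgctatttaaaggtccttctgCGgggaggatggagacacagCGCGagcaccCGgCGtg
downstream window: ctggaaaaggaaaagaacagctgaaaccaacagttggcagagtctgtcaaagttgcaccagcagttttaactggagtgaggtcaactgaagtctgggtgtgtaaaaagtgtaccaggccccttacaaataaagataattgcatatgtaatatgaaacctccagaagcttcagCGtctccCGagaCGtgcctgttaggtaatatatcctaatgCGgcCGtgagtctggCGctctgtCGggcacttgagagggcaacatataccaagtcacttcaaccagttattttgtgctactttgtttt
The upstream window held 26 CG dinucleotides at 63.0% GC and the downstream one 7 at 44.7% GC. The half-site of the cAMP response element, TGACG on either strand, occurred 3 times in the upstream window and 0 times in the downstream one, and 20.8% of all RefSeq windows held it. The full element TGACGTCA, which contains the half-site on both strands, was in neither, and 1.79% of all windows held it. A match in letters is a description and not a binding site.

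Windows were found for 28 of the 34 genes, 52 in all. They were GC-rich, with a median of 63.3% GC and 16 CG dinucleotides, beside 52.7% and 7 over all windows. TATAAA on either strand was in 5 of the 52 (9.62%), beside 13.6% of all windows. TGACG was in 9 of the 52 (17.3%), beside 20.8%.

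**Figure D4:**
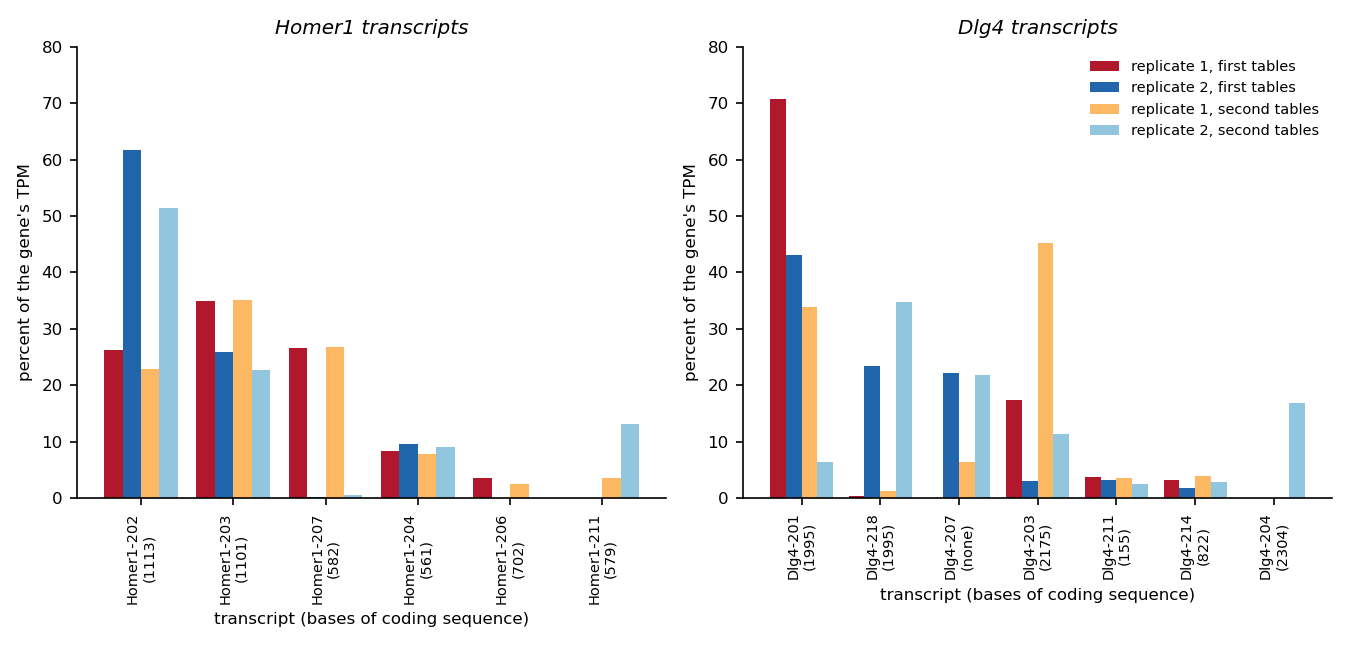
Percent of the gene's TPM on each transcript of Homer1 (left) and Dlg4 (right) with at least 3% in some table, in replicates 1 and 2 by the first and the second tables, with the bases of coding sequence in brackets. Homer1-207 is high in replicate 1 alone in both kinds of table, and the shares of the Dlg4 transcripts depend on both the library and the table.

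Dlg4 had 22 annotated transcripts, which use different start codons. PSD-95 is known in forms whose first residues differ, and one kind carries the cysteines to which palmitate is attached, which hold it at the membrane. The starts of 3 coding sequences are shown with the start codon in capitals, 5′ to 3′.
Dlg4-203: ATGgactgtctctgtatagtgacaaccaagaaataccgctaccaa
Dlg4-204: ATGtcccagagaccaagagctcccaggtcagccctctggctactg
Dlg4-201: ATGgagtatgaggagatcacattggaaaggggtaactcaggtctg
Beyond these starts Dlg4-201 and Dlg4-203 share their last 1995 bases, which is the whole coding sequence of Dlg4-201.

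The transcripts that start translation as Dlg4-203 does, at base 70018920, held 23.1% of the gene's TPM in replicate 1 and 7.27% in replicate 2 in the first tables, and 50.9% and 16.1% in the second. Those that start as Dlg4-201 does, at base 70030625, held 75.0% and 69.7% in the first tables and 39.4% and 43.8% in the second. The start of Dlg4-204, at base 70017215, held 0.17% and 0.16% in the first tables, and 0.14% in replicate 1 and 17.0% in replicate 2 in the second. Dlg4-207, a retained intron with no coding sequence, had 0% in replicate 1 and 22.1% in replicate 2 in the first tables, and 6.45% and 21.8% in the second. Its 22.1% rested on 46 of the gene's 2370 fragments, on a transcript of 301 bases, with deposited TPM bounds of 5.46 and 19.2. The share of the Dlg4-203 start was larger in replicate 1 by both methods, but its size depended on the method, at 23.1% by the first tables and 50.9% by the second in replicate 1.

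Outside Homer1 and Dlg4, transcripts also exchanged shares between the libraries. In 14 of the 34 genes, Homer1 and Dlg4 included, one transcript had at least 10 percentage points more in replicate 1 and another at least 10 points fewer, among those with a mean of 10% or more. Over all genes tested, 25.6% had such an exchange. Genes with only 1 transcript at a mean of 10% or more cannot have one but count in both totals. There were 6 of these among the 34, and their share among all genes was not compared. In 12 of the 14 the second tables moved both transcripts the same way, as they did in 87.8% of the exchanges over all genes tested. The exceptions were Akap5 and Iqsec1. These pairs were picked for having moved, so their shares are a description.

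Iqsec2 and Dlg3 showed the widest exchanges. Iqsec2-203, with 4467 coding bases, had 60.4% in replicate 1 and 16.1% in replicate 2. Iqsec2-201, with 2850 coding bases and a start 34692 bases downstream, had 0.27% in replicate 1 and 54.99% in replicate 2. In TPM this was 13.8 and 1.02 for Iqsec2-203, and 0.06 and 3.50 for Iqsec2-201. Their coding sequences begin differently, as shown with the start codon in capitals.
Iqsec2-203: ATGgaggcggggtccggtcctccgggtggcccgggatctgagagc
Iqsec2-201: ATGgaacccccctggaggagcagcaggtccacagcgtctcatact
The first 200 bases of the transcript were 82.0% GC for Iqsec2-203 and 58.0% GC for Iqsec2-201.

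Wasf1 has 2 transcripts with the same coding sequence of 1680 bases and different starts, 352 bases apart. Wasf1-202, whose first 200 bases were 80% GC, had 87.3% in replicate 1 and 55.6% in replicate 2. Wasf1-201, at 59.5% GC, had 12.7% and 44.4%. In TPM Wasf1-202 had 106.2 in replicate 1 and 24.5 in replicate 2, while Wasf1-201 had 15.4 and 19.6. The higher level of Wasf1 in replicate 1 thus lay in the transcript with the GC-rich start.

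Dlgap4, Homer2 and Dlg3 showed the same arrangement. Dlgap4-205 (77.0% GC in its first 200 bases) had 41.0% in replicate 1 and 16.9% in replicate 2, while Dlgap4-203 (56.5% GC) had 18.4% and 48.1%. Homer2-201 (78.5% GC) had 59.4% and 37.5%, while Homer2-206 (61.0% GC) had 33.7% and 46.6%. Dlg3-204 (69.0% GC) had 46.5% and 4.32%, while Dlg3-208 (57.5% GC), a processed transcript with no coding sequence, had 19.8% and 75.0%. Among the 14 exchanges the transcript with the larger share in replicate 1 had the more GC-rich first 200 bases in 9, or 64.3%, beside 57.1% of the exchanges over all genes tested. In Dlg4 and Lrrc7, both among the 9, the starts differed by only 0.5 and 1.5 percentage points of GC.

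In the other 5 exchanges the start was equally or less GC-rich in the transcript with the larger share in replicate 1. Agap2-201 and Agap2-202 share their start, and Agap2-201 had 90.5% in replicate 1 and 47.2% in replicate 2. Akap5-201 and Akap5-202 likewise share theirs. Shank2-205 (57.0% GC) had 68.3% in replicate 1 and 34.6% in replicate 2, while the longer Shank2-202 (62.0% GC) had 28.4% and 63.3%. Synpo and Ppp1r9a were the other two.

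**Figure D5:**
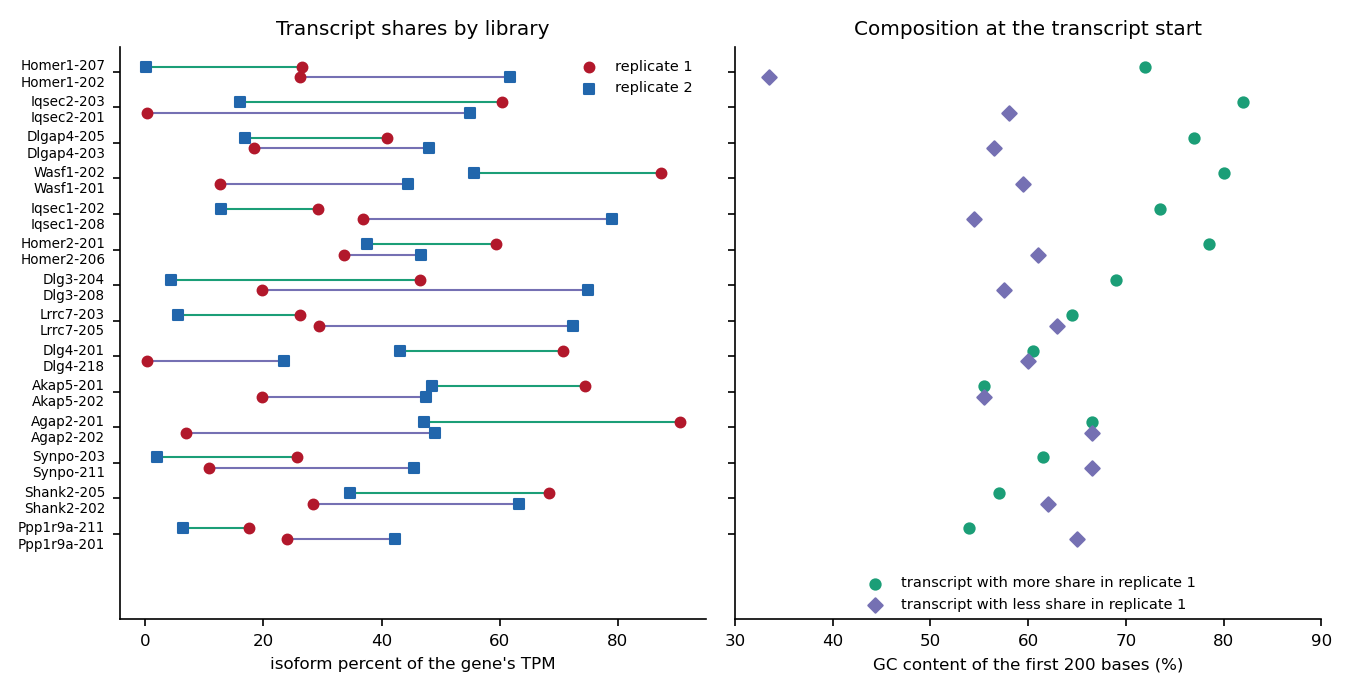
Left, isoform percent in replicate 1 (circles) and replicate 2 (squares) of the pair of transcripts in each of 14 genes that moved most in opposite directions. Right, GC content of the first 200 bases of the transcript with more share in replicate 1 (circles) and of the one with less (diamonds). In 9 of the 14 genes the circle lies to the right of the diamond, most of all in Homer1 and Iqsec2.

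Some of the level of these genes was assigned to transcripts that encode no full protein. Iqsec1-208, a retained intron of 2691 bases, was the main transcript of Iqsec1, at 36.8% in replicate 1 and 79.0% in replicate 2. Coding transcripts were assigned 43.3% of the TPM of Iqsec1 in replicate 1 and 17.7% in replicate 2. On the minus strand, Iqsec1-208 spans bases 90662288 to 90659598. The coding Iqsec1-202 has its stop at 90660981 and runs on to 90656088, so these transcripts overlap past that stop. Fragments from the overlap could be assigned to either, so the shares of Iqsec1 are uncertain. The main transcript of Shank3 was Shank3-208, annotated as a target of nonsense-mediated decay, at 30.5% and 32.7%. The full-length Shank3-201, with 5193 coding bases, had 21.7% in replicate 1 and 23.99% in replicate 2, or 2.08 and 0.69 TPM. Gene levels of Iqsec1, Dlg3 and Shank3 thus may not measure their protein-coding messages alone.

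The second tables moved single genes but not the calls. The same 11 genes were at least 1.5-fold higher in replicate 1, against 15.4% of all genes in the second tables. The log2 ratio of Akap5 was 0.03 in place of -0.30, and that of Agap2 was -0.36 in place of -0.09. The TPM of 18 of 34 genes, averaged over both libraries, moved by more than 1 SD. No gene was 2-fold or more apart in TPM between the methods in both libraries, and 30 of 34 were lower in the second tables in both. The log2 ratios of the libraries by the methods had a Spearman rho of 0.979 across the 34 genes, which share their reads.

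Close relatives of these genes had a lower median level as a set. Of 24 family relatives, such as Cyfip1, Magi1 and Wasf3, 17 were detected. The median level over all 24 was 3.85 TPM in replicate 1 and 3.05 TPM in replicate 2. Cyfip1 had 26.1 and 35.8 TPM, well below Cyfip2. Not every relative was lower than its counterpart. Agap3 had 62.3 TPM in replicate 1 and 48.2 TPM in replicate 2, above Agap2, and Magi1 had 9.95 and 13.3 TPM, near Magi2. Of the 20 relatives tested, 8 were at least 1.5-fold higher in replicate 1 and 1, Magi3, was lower, against 16.1% and 3.98% of all genes tested. Wasf3 was higher like Wasf1, at 38.1 TPM in replicate 1 and 19.1 TPM in replicate 2 (log2 ratio 1.09). After the trends were removed, 2 of the 20, Wasf3 and Cnksr3, were higher and 1, Magi3, was lower, against 13.9% and 4.39% of all genes tested.

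Other proteins of the postsynaptic density had levels similar to those of the 34. All 26 on the list were detected, with a median of 40.2 TPM in replicate 1 and 43.6 TPM in replicate 2, led by the kinase Camk2a at 847.6 and 1083 TPM. Of these, 5 were higher in replicate 1, among them Camk2b, Grin1, Cacng8 and Nlgn2, and 1, the mGluR5 gene Grm5, was lower. Over all genes tested 16.1% were higher and 3.98% lower. After the trends were removed, 2 of the 26 were higher and 1, Grm5, was lower, against 13.9% and 4.39% of all genes tested. Camk2b (0.45), Grin1 (0.52) and Nlgn2 (0.19) were then within 1.5-fold. Cacng8, an AMPA receptor auxiliary subunit, had 62.0 TPM in replicate 1 and 8.01 TPM in replicate 2 (log2 ratio 2.89) at 65.4% GC. The other WAVE complex genes were nearer to Cyfip2 than to Wasf1, with log2 ratios of 0.07 for Brk1, 0.04 for Abi1, -0.21 for Nckap1 and 0.45 for Abi2.

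Of 9 genes of the inhibitory postsynapse that accompany gephyrin, 4 were higher in replicate 1 and 0 lower, against 16.1% and 3.98% of all genes tested. Among the 4, Nlgn2, the adhesion protein of inhibitory synapses, had 13.4 TPM in replicate 1 and 10.1 TPM in replicate 2 (log2 ratio 0.63). Iqsec3, a relative of Iqsec1 and Iqsec2, had 18.8 and 13.2 TPM (0.62). After the trends were removed, 2 of the 9 were higher and 0 lower, against 13.9% and 4.39% of all genes tested. Nlgn2 (0.19) and Iqsec3 (0.36) were then within 1.5-fold.

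Genes induced by neuronal activity and markers of excitatory neurons also differed between the libraries. Of 7 activity-induced genes, 5 were higher in replicate 1, against 16.1% of all genes tested. The median log2 ratio of the 7 was 1.42, and 5 were higher after the trends were removed, against 13.9% of all genes tested. Arc had 104.5 TPM in replicate 1 and 31.6 TPM in replicate 2. Of 4 excitatory neuron markers, Slc17a7 (82.7 and 37.2 TPM) and Tbr1 (22.3 and 7.70 TPM) were higher in replicate 1, while Neurod6 was within 1.5-fold. None of the astrocyte, oligodendrocyte or microglia markers, 5 each, was 1.5-fold apart. Of 5 striatal markers 1, Adora2a, was lower in replicate 1, and the cerebellar markers Pcp2 and Gabra6 were at or below 0.5 TPM in both libraries. The part of these groups in the ratios of the 34 genes was not tested.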

How the data were processed

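Poly(A)+ RNA-seq of 2 cortex libraries was used, 1 gene table and 2 transcript tables each, on mm10 with GENCODE M21, per the deposited notes. Expected and estimated counts were deposited raw, and TPM and the isoform percent were computed by the authors. The TPM bounds are the authors', at a level not given. Aligner, quantifiers, versions and strand use were not given in the sources used here. Rows with numeric names and spike-ins (26345) held at most 3.35e-05 percent of fragments and were left out.

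Expected counts were rounded and scaled by TMM (edgeR 4.0.16, R 4.3.3). Log2 ratios used CPM plus 0.5 at a mean CPM of at least 1, and a gene was called at 1.5-fold. GC content and length trends were removed by lowess (fraction 0.3, statsmodels 0.14.6). The calculation was tested on simulated data. Alternatives were total scaling, DESeq2 1.42.0 size factors, other pseudocounts, filters and folds, the second transcript tables and leaving out each replicate. Coding and promoter sequences came from GENCODE M21 and RefSeq. Protein sequences were not used here. All 34 genes are named, and they and the lists were chosen with earlier results of these data known. Some genes of the lists are not reported here.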

Additional observations from a re-analysis of the deposited data

How the results depend on the processing

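The count of genes at least 1.5-fold higher in replicate 1 was 11 under total scaling, DESeq2 size factors, a pseudocount of 2 CPM, no filter, a mean CPM of at least 5, the second transcript tables and removal of the GC content and length trends, and it was the same 11 genes each time. Over all genes the share higher in these settings ranged from 10.4% with no filter to 16.3% at a mean CPM of at least 5. At 2-fold the count was 8, without Homer1, Homer2 and Ppp1r9b, against 8.32% of all genes. The count lower in replicate 1 was 0 in each setting except with the trends removed, where it was 2 (Agap2 and Ddn). Over all genes the share lower ranged from 0.69% at 2-fold to 5.67% under total scaling, and was 4.39% with the trends removed. The median log2 ratio was 0.091 when scaled to total fragments, where that of all genes was -0.09, and 0.11 with the trends removed. With either library alone, the median level ranged from 28.6 to 38.8 TPM, 34 genes were detected and the short Homer1 share ranged from 12.3% to 38.8%. Its mean over both libraries was 25.5%, and also 25.5% when only forms ending before the last coding exon were counted, a class chosen after seeing the data. In the second tables the TPM of 18 of 34 genes moved by more than 1 SD. Counts limit Homer3 and Shank3 most, with 72 and 190 fragments in replicate 2. No paired analysis was possible because there is 1 group.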
